A study of Mus musculus with 12 samples.

Results

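The comparison set 5 MC38 tumor samples with a high level of Cd8a messenger RNA against 6 with a low level, out of 11 samples in all. Cd8a encodes the alpha chain of CD8, the coreceptor that marks cytotoxic T cells and is also carried, without the beta chain, by some dendritic cells. The samples were chosen by Cd8a itself. A level of at least 14 FPKM (sequenced fragments divided by transcript length and by library size, so that levels of genes of unequal length can be compared) placed a tumor in the Cd8a-high set, and a lower level placed it in the Cd8a-low set. Cd8a stood at 20.4, 16.5 and 18.3 FPKM in BG136 2, 4 and 7-9 and 15.03 and 18.3 FPKM in vehicle 3 and 7, which form the Cd8a-high set. In the Cd8a-low set it was 10.2 and 5.41 FPKM in BG136 1 and 6 and 11.6, 9.69, 12.6 and 12.3 FPKM in vehicle 1, 2, 11 and 12. Vehicle 3 was the tumor just inside the threshold and vehicle 11 the tumor just outside it. The sets were therefore made from a measured value and are not groups of the study, and Cd8a is given as a description without a test.

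All tumors came from MC38 cells, an established line of mouse colon adenocarcinoma that grows as a syngeneic graft, and the labels give the genotype as wild type. BG136 tumors came from mice injected intravenously with BG136, a soluble β-1,3/1,6-glucan that the series title places in the seaweed Durvillaea antarctica. Vehicle tumors came from mice injected intravenously with vehicle. The study combined BG136 with antibodies to the checkpoint receptor PD-1, but tumors given such an antibody were not analysed here. The sources used here name no host strain, age, dose, collection time, tumor size or batch. Whether each sample is a different animal is not stated in the labels, and the p-values rest on the spread among samples, which may be technical. RNA came from blocks of whole tumor, so that fewer cells of a type and less RNA per cell cannot be told apart in any value below. The 12 libraries held 14828786 to 18125931 reads in 10 of them and 33231037 and 32956232 in BG136 replicates 7 and 9. Those last 2 libraries differed by less than sampling noise, with a chi-square per gene of 0.285 against 7.88 to 57.4 in the other 29 pairs of a group. They were averaged and counted as 1 sample, named BG136 7-9. Of the BG136 tumors 3 of 5 were Cd8a-high, and of the vehicle tumors 2 of 6 (Fisher's exact test, two-sided, p = 0.567).

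CD8 T cells recognise peptides that other cells present on class I molecules of the major histocompatibility complex (MHC). They kill by releasing perforin and granzymes and by the death ligand FasL, and they secrete interferon-gamma. Interferon-gamma acts on tumor, stromal and myeloid cells, where it induces guanylate-binding proteins, the chemokines that draw further T cells, the peptide-loading machinery of class I and, through the transactivator CIITA, the class II genes.

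The names of the sets were checked against 3 other markers of CD8 T cells. Cd8b1, the beta chain of CD8, stood at 17.5, 16.97 and 17.4 FPKM in BG136 2, 4 and 7-9 and 14.2 and 15.1 FPKM in vehicle 3 and 7 in the Cd8a-high tumors. In the Cd8a-low tumors Cd8b1 ran from 6.29 to 16.3 FPKM with a median of 9.49. All 5 Cd8a-high tumors lay above 5 of the 6 Cd8a-low tumors, but vehicle 11 was at 16.3 FPKM, above both vehicle tumors of the Cd8a-high set. The mean was 16.2 ± 1.497 FPKM in Cd8a-high and 10.3 ± 3.61 FPKM in Cd8a-low tumors (SD, n = 5 and 6), a log2 difference of 0.71 ± 0.19 (SE), adjusted p = 0.08397 by limma, which did not pass the threshold. Cd3e, a chain of the T cell receptor complex, stood at 14.9, 15.2 and 15.4 FPKM in BG136 2, 4 and 7-9 and 12.2 and 10.2 FPKM in vehicle 3 and 7, against 4.77 to 13.8 FPKM with a median of 10.1 in the Cd8a-low tumors. The BG136 tumors of the Cd8a-high set were above every Cd8a-low tumor for Cd3e, and the vehicle tumors of the set lay among them (log2 difference 0.54 ± 0.21 (SE), adjusted p = 0.209). Gzmb, which encodes granzyme B, stood at 46.2, 32.7 and 34.4 FPKM in BG136 2, 4 and 7-9 and 29.1 and 31.8 FPKM in vehicle 3 and 7, against 16.6 to 31.02 FPKM with a median of 23.99 in the Cd8a-low tumors. For Gzmb only vehicle 3 lay within the range of the Cd8a-low set (log2 difference 0.55 ± 0.17 (SE), adjusted p = 0.122). None of these 3 markers passed. Each of them separated the Cd8a-high from the Cd8a-low samples among the BG136 tumors, and none did so among the vehicle tumors. For Cd3e, vehicle 7 lay below vehicle 1, 2 and 11 of the Cd8a-low set.

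**Figure D1:**
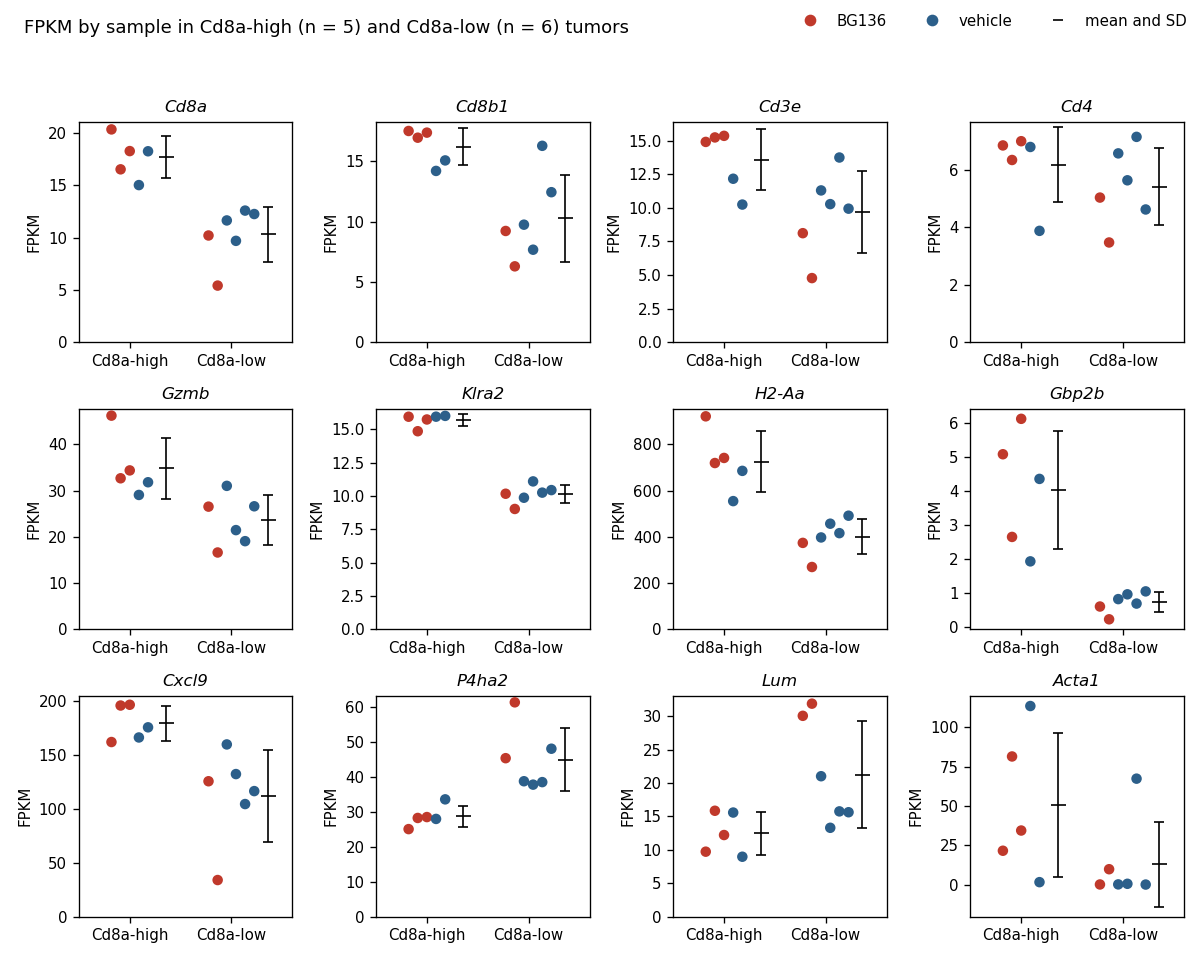
FPKM of 12 genes in each sample, with Cd8a-high tumors on the left and Cd8a-low tumors on the right of each panel; red points are BG136 and blue points vehicle samples, and the bar is the mean with its SD over 5 and 6 samples. Klra2, H2-Aa, Gbp2b, Cxcl9 and P4ha2 show no overlap of the sets, whereas Cd8b1, Cd3e, Cd4, Gzmb, Lum and Acta1 do; Cd8a chose the sets.

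Across the transcriptome the sets were compared by limma on log2(FPKM + 1), with treatment as a covariate and Benjamini-Hochberg adjustment. Genes at 1 FPKM or more in at least 5 samples were tested. Of 11441 genes tested besides Cd8a, 155 passed an adjusted p of 0.05, which is 1.35% of them. Of these 127 were higher in Cd8a-high tumors (1.11%) and 28 were lower (0.245%). At an unadjusted p under 0.05 the numbers were 1316 higher (11.5%) and 468 lower (4.09%). In 450 genes (3.93%) every Cd8a-high tumor lay above every Cd8a-low tumor, and in 113 (0.988%) every one lay below. The fitted difference was above 0 for 60.5% of genes, with a median of 0.03. When the samples were rescaled by medians of ratios the median was 0.00, and 62 genes passed, of which 39 were higher and 23 lower (62.9% higher, against 81.9% without the rescaling).

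The number past the threshold depended on single tumors. It was 2, 9, 2, 1 and 1 without BG136 1, 2, 4, 6 and 7-9 in turn, and 19, 80, 1, 426 and 1 without vehicle 2, 3, 7, 11 and 12, against 158 without vehicle 1. Of the 155 genes 140 had sets that did not overlap. Only Klra2 passed when the level of skeletal muscle genes, described further on, was added as a covariate. Each of the 155 genes kept its direction and an unadjusted p under 0.05 by limma with that covariate and in every fit without 1 tumor. Those fits share samples with the fit that chose the genes, so they are no independent repeat of it. Members of the gene lists described next made up 13 of the 155. The lists are described by counts and medians, to be read beside the background shares above.

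Genes of the T cell receptor complex and its signalling were higher in Cd8a-high tumors in all 19 tested members of 24 listed, with a median log2 difference of 0.53 against 0.03 over all genes, and 1 of them passed. That gene was Lcp2, which encodes the adaptor SLP-76. Lcp2 stood at 17.6, 19.4 and 20.2 FPKM in BG136 2, 4 and 7-9 and 15.4 and 17.9 FPKM in vehicle 3 and 7, against 11.4 to 15.7 FPKM with a median of 12.6 in the Cd8a-low tumors. The ranges of Lcp2 met only between vehicle 3 and the highest Cd8a-low tumor, and the log2 difference was 0.45 ± 0.10 (SE), adjusted p = 0.0497. Zap70, the kinase recruited to the activated receptor, was at 5.46 ± 0.776 FPKM in Cd8a-high and 3.76 ± 1.004 FPKM in Cd8a-low tumors (SD, n = 5 and 6) with sets that did not overlap, but it did not pass (log2 difference 0.53, adjusted p = 0.09095). Cd3d, a further chain of the complex, did not pass either (log2 difference 0.61, adjusted p = 0.1098). The difference was uneven between treatments. The list's median was 0.96 within the BG136 tumors and 0.17 within the vehicle tumors, where 17 of 19 members were higher, and 0.34 in all tumors without BG136 6. Trac, Trbc1 and Trbc2 were not analysed here.

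Helper and regulatory T cell genes differed less. Of 9 tested members 7 were higher and none passed (2 at an unadjusted p under 0.05), with a median of 0.18, which was 0.38 without vehicle 7. Cd4, the coreceptor of helper T cells, stood at 6.84, 6.33 and 6.99 FPKM in BG136 2, 4 and 7-9 and 6.79 and 3.87 FPKM in vehicle 3 and 7, against 3.47 to 7.14 FPKM with a median of 5.33 in the Cd8a-low tumors. The sets overlapped for Cd4 throughout, vehicle 7 being lower than all but 1 of the Cd8a-low tumors, and the log2 difference was 0.18 with a 95% interval of -0.20 to 0.56 (limma, adjusted p = 0.709). Foxp3, the master regulator of regulatory T cells, was below the filter and was not tested; it stood at 1.13, 1.56 and 0.992 FPKM in BG136 2, 4 and 7-9 and 0.834 and 0.687 FPKM in vehicle 3 and 7, against 0.581 to 1.29 FPKM with a median of 0.859. The ratio of Cd8b1 to Cd4, in FPKM, was 2.56, 2.68 and 2.49 in BG136 2, 4 and 7-9 and 2.09 and 3.90 in vehicle 3 and 7. In the Cd8a-low tumors it was 1.84 and 1.82 in BG136 1 and 6 and 1.49, 1.36, 2.28 and 2.70 in vehicle 1, 2, 11 and 12. The BG136 tumors separated by this ratio and the vehicle tumors did not. The ratio of Cd8b1 to Cd3e separated the sets in neither treatment. It was 1.18, 1.11 and 1.13 in BG136 2, 4 and 7-9, against 1.14 and 1.32 in BG136 1 and 6. In the vehicle tumors it was 1.17 and 1.47 in vehicle 3 and 7, against 0.863, 0.746, 1.19 and 1.25 in vehicle 1, 2, 11 and 12. Among genes of naive and memory T cells 5 of 8 were higher, with a median of 0.05. Slamf6, a receptor found on stem-like memory T cells, was the member that passed, at 3.11 ± 0.681 FPKM in Cd8a-high and 1.795 ± 0.332 FPKM in Cd8a-low tumors (SD, n = 5 and 6; log2 difference 0.55, adjusted p = 0.0491). Ccr7, Il7r and Klf2, which mark naive and recirculating T cells, had log2 differences of -0.16, 0.18 and 0.24 and did not pass.

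All 20 tested cytotoxic effector genes of 21 listed were higher in Cd8a-high tumors, with a median of 0.60, and 2 passed. Klrk1 encodes NKG2D, an activating receptor of CD8 T and natural killer (NK) cells that binds stress-induced ligands. It stood at 6.02, 5.15 and 6.11 FPKM in BG136 2, 4 and 7-9 and 4.801 and 4.56 FPKM in vehicle 3 and 7, against 1.91 to 3.43 FPKM with a median of 3.02 in the Cd8a-low tumors, and the sets did not overlap (log2 difference 0.71 ± 0.12 (SE), adjusted p = 0.0343). Fasl, the death ligand that engages Fas on target cells, stood at 3.94, 3.82 and 3.79 FPKM in BG136 2, 4 and 7-9 and 3.33 and 2.697 FPKM in vehicle 3 and 7, against 1.17 to 2.37 FPKM with a median of 1.802. Its sets did not overlap either, with vehicle 7 the lowest of the Cd8a-high tumors (log2 difference 0.68 ± 0.12 (SE), adjusted p = 0.0369). Gzma, a granzyme of tryptase type, was at 8.67 ± 2.97 FPKM in Cd8a-high and 4.08 ± 1.297 FPKM in Cd8a-low tumors (SD, n = 5 and 6) without overlap, but it did not pass (log2 difference 0.88, adjusted p = 0.0556). Prf1, which encodes perforin, was at 6.43 ± 1.06 FPKM in Cd8a-high and 4.07 ± 1.62 FPKM in Cd8a-low tumors and did not pass (log2 difference 0.63, adjusted p = 0.177). In the vehicle tumors the sets crossed for Prf1, with 4.77 FPKM in vehicle 3 and 6.54 FPKM in vehicle 12. Ifng, which encodes interferon-gamma, stood at 5.85, 2.46 and 4.59 FPKM in BG136 2, 4 and 7-9 and 2.295 and 2.81 FPKM in vehicle 3 and 7, against 1.04 to 2.91 FPKM with a median of 2.42. The sets overlapped for Ifng, only BG136 2 and 7-9 lying above all Cd8a-low tumors (log2 difference 0.45, adjusted p = 0.377). Xcl1, a chemokine that cytotoxic cells release to draw cross-presenting dendritic cells, did not pass (log2 difference 0.37, adjusted p = 0.494).

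Gzmb, Prf1 and Ifng, which overlapped between the sets in FPKM, also overlapped when divided by Cd8b1, and no other cytotoxic gene was set against Cd8b1. The ratio of Gzmb to Cd8b1 was 2.636, 1.92 and 1.98 in BG136 2, 4 and 7-9 and 2.04 and 2.11 in vehicle 3 and 7. In the Cd8a-low tumors it was 2.87 and 2.641 in BG136 1 and 6 and 3.18, 2.80, 1.17 and 2.14 in vehicle 1, 2, 11 and 12. BG136 1 and 6 and vehicle 1 and 2 thus lay above every Cd8a-high tumor, BG136 6 by a narrow gap, and vehicle 11 below every one. The difference in this ratio was not tested. For Prf1 to Cd8b1 the Cd8a-high tumors ran from 0.336 to 0.430 and the Cd8a-low tumors from 0.185 to 0.573. The ratio of Ifng to Cd8b1 ran from 0.145 to 0.334 in Cd8a-high and from 0.154 to 0.303 in Cd8a-low tumors. The Cd8a-high tumors fell inside the range of the Cd8a-low tumors in these ratios, except BG136 2 above it and BG136 4 below it for Ifng.

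Genes more particular to NK cells were low. Of 10 listed, 4 were tested and 2 of these, Gzma and Eomes, are shared with CD8 T cells. Ncr1, the defining NK receptor NKp46, was at 0.189 to 0.596 FPKM in Cd8a-high tumors and at 0.129 to 0.375 FPKM in Cd8a-low tumors. Klrb1b, an inhibitory receptor of the NKR-P1 family, had a log2 difference of 0.58 and Klra4, of the Ly49 family, one of 0.10, and neither passed (adjusted p = 0.0999 and 0.7797). The part of NK cells in the cytotoxic list was not tested.

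MHC class II genes held more genes past the threshold than any other list. Class II molecules present peptides of taken-up proteins to helper T cells and are carried by dendritic cells, macrophages and B cells, and by other cells under interferon-gamma. All 10 tested members of 11 were higher, with a median of 0.61; 4 passed and 7 had sets that did not overlap. H2-Aa, the alpha chain of the H2-A molecule, stood at 921, 719 and 741 FPKM in BG136 2, 4 and 7-9 and 555 and 685 FPKM in vehicle 3 and 7, against 269.6 to 492 FPKM with a median of 407 in the Cd8a-low tumors. The lowest Cd8a-high tumor, vehicle 3, was above the highest Cd8a-low tumor, vehicle 12. Means were 724 ± 132 FPKM in Cd8a-high and 401 ± 76.9 FPKM in Cd8a-low tumors (SD, n = 5 and 6), a log2 difference of 0.88 ± 0.16 (SE), adjusted p = 0.0369. H2-Eb1, a beta chain, stood at 524, 426 and 456 FPKM in BG136 2, 4 and 7-9 and 310.3 and 400.3 FPKM in vehicle 3 and 7, against 158 to 286 FPKM with a median of 245 (log2 difference 0.84 ± 0.17 (SE), adjusted p = 0.0415). H2-Ab1, the beta chain partner of H2-Aa, stood at 967, 910.2 and 964 FPKM in BG136 2, 4 and 7-9 and 619 and 805 FPKM in vehicle 3 and 7, against 336 to 573 FPKM with a median of 523 (log2 difference 0.79 ± 0.16 (SE), adjusted p = 0.0436). Ctss encodes cathepsin S, the protease that trims the invariant chain in class II compartments. It was at 715 ± 67.4 FPKM in Cd8a-high and 539 ± 43.4 FPKM in Cd8a-low tumors (SD, n = 5 and 6; log2 difference 0.41 ± 0.09 (SE), adjusted p = 0.0475). All 3 of these genes had sets that did not overlap.

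Ciita, the transactivator that class II genes require, stood at 4.33, 5.24 and 6.22 FPKM in BG136 2, 4 and 7-9 and 3.87 and 3.96 FPKM in vehicle 3 and 7, against 1.86 to 3.397 FPKM with a median of 2.55 in the Cd8a-low tumors. Its sets did not overlap, but it did not pass (log2 difference 0.66, adjusted p = 0.0533). Cd74, the invariant chain, was at 1741 ± 366 FPKM in Cd8a-high and 989.9 ± 174 FPKM in Cd8a-low tumors (SD, n = 5 and 6) and did not pass (log2 difference 0.80, adjusted p = 0.0537), vehicle 3 lying at 1156 FPKM within the Cd8a-low range. H2-DMa, part of the peptide exchange factor of class II, was at 10.8 ± 2.02 FPKM in Cd8a-high and 7.28 ± 0.943 FPKM in Cd8a-low tumors (log2 difference 0.49, adjusted p = 0.0709). Vehicle 3 was the lowest of the Cd8a-high tumors in H2-Aa, H2-Ab1, H2-Eb1, Cd74 and H2-DMa. Relative to Csf1r, a receptor of macrophages, H2-Aa was 11.4, 8.88 and 8.74 in BG136 2, 4 and 7-9 and 7.21 and 9.38 in vehicle 3 and 7. In Cd8a-low tumors the ratio ran from 4.02 in BG136 6 to 8.95 in vehicle 12. Vehicle 12 was thus the only Cd8a-low tumor above any Cd8a-high tumor in this ratio.

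The sequences before the transcription starts of 3 of the separated genes are shown because class II promoters share a module in which NF-Y binds a Y box, and because guanylate-binding protein genes carry interferon response elements. They are RefSeq sequences of build GRCm38.p6, 250 bases before to 50 bases after the start, written on the gene's strand; the expression table used GRCm39, and no coordinate was carried between the builds. H2-Aa lies on the minus strand at chr17:34287774-34288073, H2-Eb1 on the plus strand at chr17:34305617-34305916 and Gbp2b on the plus strand at chr3:142594597-142594896. Capitals mark a Y box (GATTGG on either strand, which reads CCAATC on the other) in the H2 genes. In Gbp2b they mark the core of an interferon-stimulated response element (GAAA and GAAA with 2 bases between them, found here on the other strand as TTTCACTTTC).
H2-Aa: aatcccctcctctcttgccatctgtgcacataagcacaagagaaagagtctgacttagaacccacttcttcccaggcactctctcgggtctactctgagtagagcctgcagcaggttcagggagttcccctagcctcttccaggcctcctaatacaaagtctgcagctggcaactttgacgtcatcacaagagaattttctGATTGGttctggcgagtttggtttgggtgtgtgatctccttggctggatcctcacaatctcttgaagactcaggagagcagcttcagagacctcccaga
H2-Eb1: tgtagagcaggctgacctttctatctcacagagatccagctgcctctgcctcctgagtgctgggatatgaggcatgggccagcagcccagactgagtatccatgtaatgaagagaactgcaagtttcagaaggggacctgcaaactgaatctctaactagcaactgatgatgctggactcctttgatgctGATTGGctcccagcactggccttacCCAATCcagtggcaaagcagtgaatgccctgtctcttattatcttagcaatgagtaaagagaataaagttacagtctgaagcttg
Gbp2b: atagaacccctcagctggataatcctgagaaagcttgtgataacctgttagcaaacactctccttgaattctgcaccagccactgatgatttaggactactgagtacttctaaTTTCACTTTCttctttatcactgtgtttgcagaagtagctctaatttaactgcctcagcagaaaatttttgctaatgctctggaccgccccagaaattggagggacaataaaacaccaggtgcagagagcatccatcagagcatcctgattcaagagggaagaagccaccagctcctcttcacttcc
The Y box of H2-Aa lay at -49 to -44 from the start, and those of H2-Eb1 at -60 to -55 and, on the other strand, at -35 to -30. The element in Gbp2b lay at -137 to -128. A gamma-activated site (TTCNNNGAA) was in none of the 3 windows. Among 32544 windows of the same length, 16.1% held a Y box, 3.45% the response element core and 8.33% a gamma-activated site, each counted on both strands. These matches describe letters only and were not tested for binding.

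Interferon-gamma response genes were higher in 25 of 26 members, with a median of 0.35; 1 passed and 7 had sets that did not overlap. Gbp8, an interferon-induced GTPase of the guanylate-binding family, was the member that passed. It stood at 18.5, 13.8 and 15.6 FPKM in BG136 2, 4 and 7-9 and 10.3 and 13.6 FPKM in vehicle 3 and 7, against 4.82 to 9.34 FPKM with a median of 7.46 in the Cd8a-low tumors, without overlap (log2 difference 0.87 ± 0.16 (SE), adjusted p = 0.0376). Gbp2b, of the same family and among the genes of smallest p, had the largest log2 difference of the named genes that passed. It stood at 5.08, 2.65 and 6.12 FPKM in BG136 2, 4 and 7-9 and 1.94 and 4.35 FPKM in vehicle 3 and 7, against 0.239 to 1.06 FPKM with a median of 0.766. Every Cd8a-high tumor was above every Cd8a-low tumor, vehicle 3 being nearest to them, and the means differed 5.47-fold (log2 difference 1.48 ± 0.23 (SE), adjusted p = 0.0343). Gbp4 was at 88.2 ± 6.33 FPKM in Cd8a-high and 55.4 ± 16.5 FPKM in Cd8a-low tumors (SD, n = 5 and 6), without overlap, and Gbp3 at 107 ± 4.36 FPKM in Cd8a-high and 86.8 ± 11.2 FPKM in Cd8a-low tumors; neither passed (adjusted p = 0.08398 and 0.101). Irf1, a transcription factor of the interferon-gamma response, had a log2 difference of 0.27 and did not pass. Guanylate-binding genes share long near-identical stretches, and the sources used here do not say how reads that fit several of them were counted, so single members are uncertain; the same holds for the H2, granzyme and Klra families.

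Type I interferon-stimulated genes, an antiviral programme that overlaps with the interferon-gamma one, had a median near 0, with a sign that depended on single tumors. Of 21 tested, 10 were higher and 11 lower, with a median of -0.02, and none passed (2 at an unadjusted p under 0.05, both higher). The median was 0.07 with 14 of 21 higher without vehicle 11, and 0.13 with 19 of 21 higher without BG136 6 and vehicle 11 and 12, where that of the interferon-gamma response was 0.15. The difference between the lists was not tested. The member of smallest p, Stat2, was at 68.3 ± 5.85 FPKM in Cd8a-high and 55.1 ± 5.09 FPKM in Cd8a-low tumors (SD, n = 5 and 6; log2 difference 0.30, adjusted p = 0.09095).

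MHC class I and peptide-loading genes were slightly higher in 20 of 22 members, with a median of 0.13, and none passed. The median was 0.30 within the BG136 tumors, with 22 of 22 higher, and 0.02 within the vehicle tumors, with 13 of 22 higher. B2m, the shared light chain of class I, had a log2 difference of 0.12 with a 95% interval of -0.09 to 0.33, and H2-K1, a classical heavy chain, one of 0.12 with an interval of -0.10 to 0.34. Both intervals include 0. Nlrc5, the class I transactivator, was at 32.9 ± 1.23 FPKM in Cd8a-high and 22.9 ± 5.61 FPKM in Cd8a-low tumors (SD, n = 5 and 6) with sets that did not overlap (log2 difference 0.52, adjusted p = 0.113). Tapbpl, a peptide editor of class I, stood at 27.5, 28.5 and 31.7 FPKM in BG136 2, 4 and 7-9 and 28.2 and 28.7 FPKM in vehicle 3 and 7, against 17.5 to 26.1 FPKM with a median of 23.97. Its sets did not overlap, and it did not pass (log2 difference 0.36, adjusted p = 0.0608).

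Among chemokines and receptors that guide T cells, 10 of 11 tested members were higher, with a median of 0.35, and 1 passed. The member that passed is not among those described here. Cxcl9, which draws T cells that carry CXCR3, stood at 162, 196 and 197 FPKM in BG136 2, 4 and 7-9 and 167 and 176 FPKM in vehicle 3 and 7, against 33.9 to 160.1 FPKM with a median of 121. The sets did not overlap for Cxcl9, and the spread of the Cd8a-low set was wide, from 33.9 FPKM in BG136 6 to 160.1 FPKM in vehicle 1; the gene did not pass (log2 difference 0.93 ± 0.30 (SE), adjusted p = 0.142). Cxcl10, its relative, overlapped between sets (log2 difference 0.29, adjusted p = 0.4896), as did Ccl5 (log2 difference 0.35, adjusted p = 0.179) and Cxcr6, a receptor of tissue-resident effector T cells (log2 difference 0.44, adjusted p = 0.188). Cxcl16, the ligand of Cxcr6, did not overlap and did not pass (log2 difference 0.30, adjusted p = 0.109).

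Inhibitory checkpoint genes were higher in all 11 tested members, with a median of 0.37, and none passed (6 at an unadjusted p under 0.05). Havcr2, which encodes TIM-3, stood at 12.1, 10.6 and 11.05 FPKM in BG136 2, 4 and 7-9 and 10.2 and 10.2 FPKM in vehicle 3 and 7, against 6.65 to 9.37 FPKM with a median of 8.64. The sets did not overlap, and the log2 difference was 0.38 ± 0.10 (SE), adjusted p = 0.0887. Entpd1, which encodes the ectonucleotidase CD39, was also without overlap at 15.8 ± 1.24 FPKM in Cd8a-high and 12 ± 1.98 FPKM in Cd8a-low tumors (SD, n = 5 and 6; log2 difference 0.37, adjusted p = 0.113). Pdcd1, which encodes PD-1, stood at 4.78, 3.88 and 5.59 FPKM in BG136 2, 4 and 7-9 and 5.98 and 4.16 FPKM in vehicle 3 and 7, against 1.47 to 6.04 FPKM with a median of 3.86. Its sets overlapped (log2 difference 0.50, adjusted p = 0.289), as did those of Lag3 (log2 difference 0.50, adjusted p = 0.148), Tigit (log2 difference 0.25, adjusted p = 0.583) and Cd274, the ligand PD-L1 (log2 difference 0.45, adjusted p = 0.368). In Tigit and in Cd274 the highest sample of all belonged to the Cd8a-low set.

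Ptprc, which encodes CD45, the surface phosphatase of all leukocytes, is outside the naming rule and was chosen after its values were seen. It stood at 32.03, 33.1 and 35.5 FPKM in BG136 2, 4 and 7-9 and 32.7 and 29.8 FPKM in vehicle 3 and 7, against 20.1 to 27.4 FPKM with a median of 22.1 in the Cd8a-low tumors, without overlap (log2 difference 0.48 ± 0.09 (SE), adjusted p = 0.0376). Monocyte and macrophage genes were higher in 19 of 20 members, with a median of 0.24; none passed and 9 had an unadjusted p under 0.05. Csf1r, the growth factor receptor of macrophages, was at 79.3 ± 4.48 FPKM in Cd8a-high and 65.1 ± 5.39 FPKM in Cd8a-low tumors (SD, n = 5 and 6) and Fcgr3, a receptor for antibody Fc parts, at 55.5 ± 5.91 FPKM in Cd8a-high and 43.2 ± 4.35 FPKM in Cd8a-low tumors. Neither overlapped between sets, and neither passed (adjusted p = 0.0807 and 0.0717). Ccr2, the receptor that brings monocytes out of the marrow, was at 14.8 ± 2.69 FPKM in Cd8a-high and 10.2 ± 0.939 FPKM in Cd8a-low tumors and overlapped, with 10.4 FPKM in vehicle 7 (log2 difference 0.44, adjusted p = 0.0669). C1qb, of the complement component that tumor macrophages make, did not pass (log2 difference 0.37, adjusted p = 0.126). The mean level of the 20 genes, each centred over the 11 samples on the log2 scale, was 0.07 to 0.21 in Cd8a-high and -0.19 to 0.03 in Cd8a-low tumors.

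Genes of alternatively activated macrophages split evenly, 7 of 14 higher, with a median of 0.00, and none passed (2 at an unadjusted p under 0.05, both lower). The members of smallest p were Lyve1 and Folr2, which mark perivascular resident macrophages; Lyve1 also marks lymphatic endothelium. Lyve1 stood at 0.724, 0.845 and 1.29 FPKM in BG136 2, 4 and 7-9 and 1.79 and 0.945 FPKM in vehicle 3 and 7, against 1.84 to 5.89 FPKM with a median of 2.44 in the Cd8a-low tumors. All 5 Cd8a-high tumors were below all 6 others, vehicle 3 by a small gap, and the gene did not pass (log2 difference -0.93 ± 0.21 (SE), adjusted p = 0.0556). Folr2 was at 8.49 ± 3.16 FPKM in Cd8a-high and 13.8 ± 1.62 FPKM in Cd8a-low tumors (SD, n = 5 and 6), with vehicle 3 at 13.9 FPKM inside the Cd8a-low range (log2 difference -0.62, adjusted p = 0.0733). Arg1 and Mrc1, an enzyme and a receptor often used as markers of this state, had log2 differences of -0.03 and -0.04 (adjusted p = 0.98 and 0.957).

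Neutrophil genes were mixed, 6 of 12 higher with a median of 0.00, and 1 passed. The median was -0.31 within the BG136 tumors and 0.35 within the vehicle tumors. Csf3r, the receptor for granulocyte colony-stimulating factor, which monocytes carry as well, stood at 11.4, 9.14 and 9.47 FPKM in BG136 2, 4 and 7-9 and 10.7 and 9.805 FPKM in vehicle 3 and 7, against 4.29 to 6.91 FPKM with a median of 6.32. The sets did not overlap (log2 difference 0.69 ± 0.12 (SE), adjusted p = 0.0343). Mmp9, a matrix protease of neutrophil granules that macrophages and stroma also make, was below in every Cd8a-high tumor, at 31.5 ± 6.42 FPKM in Cd8a-high and 47.5 ± 6.72 FPKM in Cd8a-low tumors (SD, n = 5 and 6), and did not pass (log2 difference -0.59, adjusted p = 0.0595). Retnlg, a neutrophil gene, was at 2.24 ± 2.195 FPKM in Cd8a-high and 4.62 ± 2.83 FPKM in Cd8a-low tumors (log2 difference -0.98, adjusted p = 0.263).

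Dendritic cell genes were higher in 7 of 10 with a median of 0.08, and none passed. Xcr1 and Clec9a, which define cross-presenting dendritic cells, were below the filter, as was Flt3. Fscn1 and Ccl22, genes of mature dendritic cells, had log2 differences of -0.23 and -0.32, and Batf3, needed for the cross-presenting lineage, one of 0.46, none of which passed. Of the B and plasma cell genes 4 of 12 were tested, all 4 were higher (median 0.36) and none passed, while Ms4a1 and Pax5 were below the filter. Mast cell and basophil genes were higher in 6 of 7 with a median of 0.35, and none passed. Cma1, a chymase of connective tissue mast cells, stood at 6.56, 5.902 and 6.96 FPKM in BG136 2, 4 and 7-9 and 4.43 and 3.07 FPKM in vehicle 3 and 7, against 1.48 to 3.72 FPKM with a median of 2.602. Vehicle 7 fell inside the Cd8a-low range for Cma1 (log2 difference 0.67, adjusted p = 0.0751). The median of the mast cell genes was 0.15 when the muscle level was a covariate.

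The 12 genes of smallest p among those higher in Cd8a-high tumors are described next, apart from Gbp2b, given above. Klra2 encodes Ly49B, an inhibitory receptor of the Ly49 family known from myeloid cells rather than NK cells. It stood at 15.96, 14.9 and 15.7 FPKM in BG136 2, 4 and 7-9 and 15.96 and 16.02 FPKM in vehicle 3 and 7, against 9.03 to 11.1 FPKM with a median of 10.2 in the Cd8a-low tumors. The lowest Cd8a-high tumor was BG136 4 and the highest Cd8a-low tumor vehicle 2, and every sample of a set lay close to the others of that set. Means were 15.7 ± 0.482 FPKM in Cd8a-high and 10.1 ± 0.683 FPKM in Cd8a-low tumors (SD, n = 5 and 6), a log2 difference of 0.61 ± 0.06 (SE), adjusted p = 0.00267. Adgrg5, an adhesion G protein-coupled receptor of leukocytes, stood at 6.88, 5.86 and 5.82 FPKM in BG136 2, 4 and 7-9 and 5.33 and 6.32 FPKM in vehicle 3 and 7, against 2.58 to 3.89 FPKM with a median of 3.59 (log2 difference 0.68 ± 0.09 (SE), adjusted p = 0.0215). Fgd2, an exchange factor for Cdc42 found in antigen-presenting cells, stood at 14.8, 10.7 and 13.8 FPKM in BG136 2, 4 and 7-9 and 11.1 and 12.7 FPKM in vehicle 3 and 7, against 6.51 to 8.21 FPKM with a median of 7.24 (log2 difference 0.71 ± 0.10 (SE), adjusted p = 0.0215). Shtn1, which encodes shootin, a protein first known from axon outgrowth, stood at 3.75, 4.07 and 4.07 FPKM in BG136 2, 4 and 7-9 and 3.97 and 3.85 FPKM in vehicle 3 and 7, against 1.56 to 2.55 FPKM with a median of 2.096 (log2 difference 0.69 ± 0.09 (SE), adjusted p = 0.0215). None of these 4 overlapped between sets.

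Fgl2, a fibrinogen-like protein of macrophages and T cells with prothrombinase and immunoregulatory forms, was at 39.1 ± 5.42 FPKM in Cd8a-high and 23.9 ± 2.81 FPKM in Cd8a-low tumors (SD, n = 5 and 6; log2 difference 0.69 ± 0.11 (SE), adjusted p = 0.0343). Fyb, the adaptor ADAP of T cells and myeloid cells, was at 21.3 ± 1.22 FPKM in Cd8a-high and 15.1 ± 1.55 FPKM in Cd8a-low tumors (log2 difference 0.43 ± 0.07 (SE), adjusted p = 0.0343). Dennd1c, an exchange factor for the GTPase Rab35, was at 12.2 against 7.22 FPKM on average, Arhgap27, a GTPase-activating protein, at 6.02 against 3.998 FPKM, and Abcg3, a transporter, at 2.77 against 1.71 FPKM, in Cd8a-high and Cd8a-low tumors. Apobec1, the cytidine deaminase that edits apolipoprotein B messenger RNA, was at 16.96 against 12.5 FPKM, and Rassf4, a Ras-association protein, at 7.03 against 4.54 FPKM. All of these passed, with adjusted p from 0.0215 for Arhgap27 to 0.0343 for Rassf4, and none overlapped between sets.

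**Figure D2:**
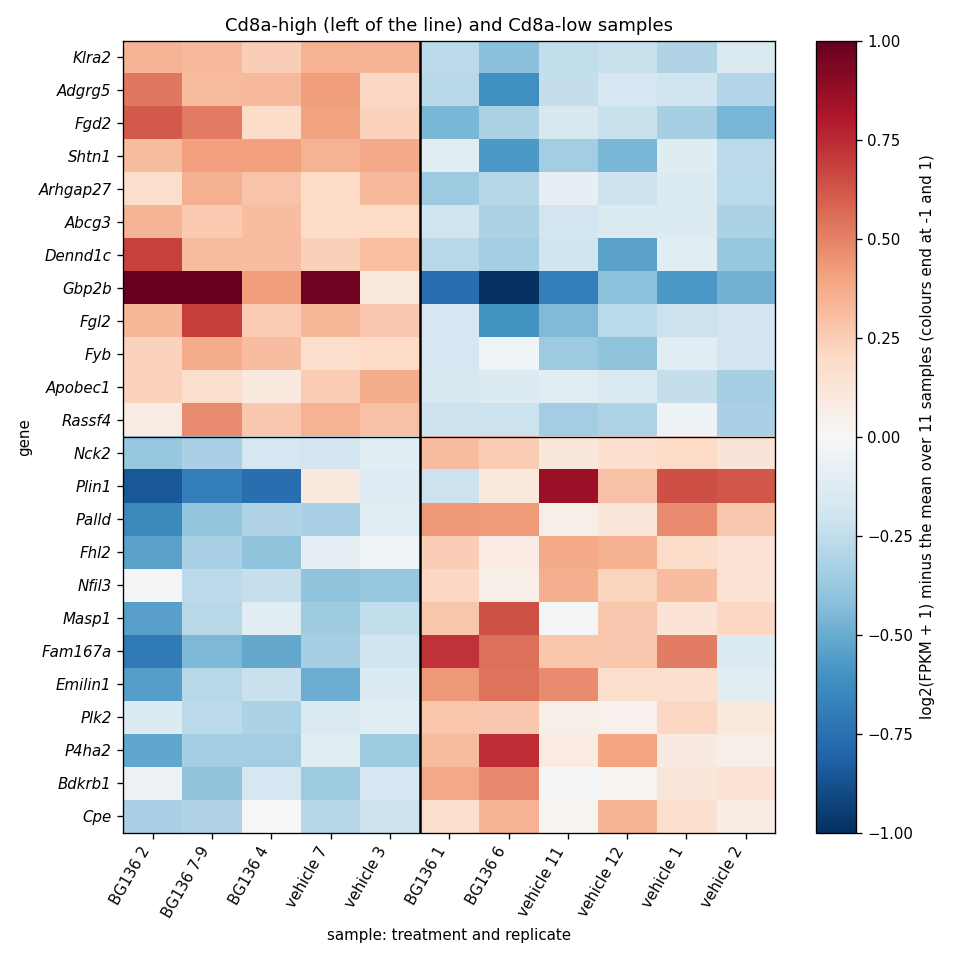
log2(FPKM + 1) of the 12 genes of smallest p in each direction (rows), minus the gene's mean over the 11 samples, by sample (columns), with Cd8a-high samples left of the line; red is above and blue below the mean, and colours end at -1 and 1. The upper 12 genes are above their mean in every Cd8a-high sample, vehicle 3 being the palest for Gbp2b; Plin1 is the row in the lower block whose sets overlap.

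Fibroblast and matrix genes were lower in Cd8a-high tumors in 18 of 20 members, with a median of -0.35; 13 had an unadjusted p under 0.05 and none passed. Lum, a collagen-binding proteoglycan, stood at 9.72, 15.8 and 12.2 FPKM in BG136 2, 4 and 7-9 and 15.6 and 8.96 FPKM in vehicle 3 and 7, against 13.3 to 31.9 FPKM with a median of 18.4 in the Cd8a-low tumors. The sets overlapped, BG136 1 and 6 being far above all others at 30.1 and 31.9 FPKM (log2 difference -0.82 ± 0.20 (SE), adjusted p = 0.0647). Postn, a matrix protein of activated fibroblasts, was at 142 ± 35.5 FPKM in Cd8a-high and 238 ± 69.6 FPKM in Cd8a-low tumors (SD, n = 5 and 6; log2 difference -0.77, adjusted p = 0.114). Col5a2 and Col3a1, fibrillar collagen chains, had log2 differences of -0.49 and -0.48 and did not pass (adjusted p = 0.0764 and 0.135). Thy1, 1 of the 2 members that were not lower, is also a T cell surface protein and was higher (log2 difference 0.53, adjusted p = 0.147). The median was -0.51 within the BG136 tumors and -0.21 within the vehicle tumors.

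Outside that list, Emilin1, Masp1, P4ha2 and P4ha1 were stromal or collagen-processing genes that passed. Emilin1, a glycoprotein of elastic fibres, stood at 11.3, 14.4 and 13.9 FPKM in BG136 2, 4 and 7-9 and 15.2 and 11.8 FPKM in vehicle 3 and 7, against 15.6 to 25.2 FPKM with a median of 21.3, without overlap (log2 difference -0.66 ± 0.12 (SE), adjusted p = 0.0369). Masp1, a protease of the lectin pathway of complement made by stromal cells, was at 5.56 ± 0.715 FPKM in Cd8a-high and 8.69 ± 1.55 FPKM in Cd8a-low tumors (SD, n = 5 and 6; log2 difference -0.60, adjusted p = 0.0365). P4ha2 encodes a catalytic subunit of prolyl 4-hydroxylase, which hydroxylates collagen and is induced by low oxygen. It stood at 25.1, 28.3 and 28.5 FPKM in BG136 2, 4 and 7-9 and 28 and 33.6 FPKM in vehicle 3 and 7, against 37.8 to 61.4 FPKM with a median of 42.1. Every Cd8a-high tumor was below every Cd8a-low tumor (log2 difference -0.65 ± 0.12 (SE), adjusted p = 0.0378). P4ha1, the other main catalytic subunit, stood at 73.6, 72.8 and 77.3 FPKM in BG136 2, 4 and 7-9 and 73.3 and 78.7 FPKM in vehicle 3 and 7, against 84.2 to 114 FPKM with a median of 95.2. The Cd8a-high tumors were tightly grouped and again all below the others (log2 difference -0.37 ± 0.07 (SE), adjusted p = 0.0424).

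P4ha1 was the member that passed among 24 glycolysis and hypoxia genes, of which 22 were lower, with a median of -0.21 and 10 at an unadjusted p under 0.05. Ankrd37, a target of hypoxia-inducible factor, was at 5.24 ± 1.16 FPKM in Cd8a-high and 9.06 ± 2.07 FPKM in Cd8a-low tumors (SD, n = 5 and 6; log2 difference -0.70, adjusted p = 0.054). Adm, which encodes the vasodilator adrenomedullin, stood at 4.89, 4.36 and 4.81 FPKM in BG136 2, 4 and 7-9 and 5.02 and 9.09 FPKM in vehicle 3 and 7, against 6.499 to 16.8 FPKM with a median of 11.9. Vehicle 7 lay within the Cd8a-low range for Adm, and the 4 other Cd8a-high tumors lay below it (log2 difference -0.91 ± 0.23 (SE), adjusted p = 0.0708). Pgam1, a glycolytic mutase, was at 159 ± 16.8 FPKM in Cd8a-high and 205 ± 17.2 FPKM in Cd8a-low tumors (log2 difference -0.35, adjusted p = 0.0717). The median of the list was -0.40 within the BG136 tumors, -0.10 within the vehicle tumors and -0.08 with the muscle level as a covariate; with that covariate and without BG136 6 it was 0.02, on the other side of 0.

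Immediate early and heat shock genes were lower in all 20 members, with a median of -0.21. None passed, 7 had an unadjusted p under 0.05 and 2 did not overlap. Within the BG136 tumors the median was -0.15 with 5 of 20 higher, and within the vehicle tumors -0.28 with 2 of 20 higher. The mean centred level of the list was -0.28 to -0.10 in Cd8a-high and -0.01 to 0.49 in Cd8a-low tumors. Hsp90aa1, an inducible chaperone, stood at 293, 237 and 277 FPKM in BG136 2, 4 and 7-9 and 259 and 244 FPKM in vehicle 3 and 7, against 310.4 to 373 FPKM with a median of 332, without overlap (log2 difference -0.36 ± 0.08 (SE), adjusted p = 0.0507). Junb, an AP-1 subunit, was also without overlap at 76.1 ± 3.23 FPKM in Cd8a-high and 89.8 ± 4.399 FPKM in Cd8a-low tumors (SD, n = 5 and 6; log2 difference -0.25, adjusted p = 0.0566). Hspa1a, which encodes the inducible HSP70, ran from 0.5302 to 2.36 FPKM in Cd8a-high and from 2.17 to 13.2 FPKM in Cd8a-low tumors, the highest value being that of vehicle 2 (log2 difference -1.18, adjusted p = 0.124).

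Adipocyte genes were lower in 10 of 12 tested members, with a median of -0.44, and 1 passed. Plin1, which coats the lipid droplets of fat cells, stood at 0.317, 0.404 and 0.473 FPKM in BG136 2, 4 and 7-9 and 1.16 and 1.53 FPKM in vehicle 3 and 7, against 1.04 to 3.31 FPKM with a median of 2.27. The 3 BG136 tumors of the Cd8a-high set were below all others, whereas vehicle 3 and 7 overlapped with BG136 1 and 6 (log2 difference -0.66 ± 0.11 (SE), adjusted p = 0.0343). Cfd, which encodes adipsin, stood at 9.51, 6.27 and 10.1 FPKM in BG136 2, 4 and 7-9 and 27.5 and 30.97 FPKM in vehicle 3 and 7, against 22.4 to 74.3 FPKM with a median of 35.8 (log2 difference -1.03, adjusted p = 0.0567). The median was -0.75 within the BG136 tumors and -0.09 within the vehicle tumors, where 4 of 12 members were higher. For Plin1 itself the difference was -0.71 within BG136 and -0.62 within vehicle tumors.

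The remaining genes of smallest p among those lower in Cd8a-high tumors follow. Nck2, an adaptor that links receptors to actin, stood at 12.4, 14.4 and 12.9 FPKM in BG136 2, 4 and 7-9 and 15.2 and 14.3 FPKM in vehicle 3 and 7, against 17.9 to 20.6 FPKM with a median of 18.8, without overlap (log2 difference -0.43 ± 0.07 (SE), adjusted p = 0.0343). Palld, which encodes the actin-bundling protein palladin, stood at 5.52, 7.28 and 6.76 FPKM in BG136 2, 4 and 7-9 and 8.41 and 7.12 FPKM in vehicle 3 and 7, against 9.57 to 13.1 FPKM with a median of 11.9, without overlap (log2 difference -0.65 ± 0.11 (SE), adjusted p = 0.0343). Fhl2, a LIM domain cofactor, was at 17.6 ± 2.73 FPKM in Cd8a-high and 25.3 ± 2.19 FPKM in Cd8a-low tumors (SD, n = 5 and 6; log2 difference -0.45, adjusted p = 0.0343), and Nfil3, a transcription factor required for NK cell development but present in many cells, at 6.42 ± 0.8097 FPKM in Cd8a-high and 9.29 ± 0.782 FPKM in Cd8a-low tumors (log2 difference -0.48, adjusted p = 0.0351). Plk2, a stress-induced kinase, was at 49.1 against 63.1 FPKM on average, Cpe, a prohormone-processing carboxypeptidase, at 50.03 against 66.7 FPKM, Bdkrb1, a bradykinin receptor, at 0.8604 against 1.503 FPKM, and Fam167a at 0.745 against 2.08 FPKM, in Cd8a-high and Cd8a-low tumors. All 4 passed, with adjusted p from 0.0369 for Fam167a to 0.0385 for Cpe, and none overlapped.

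**Figure D3:**
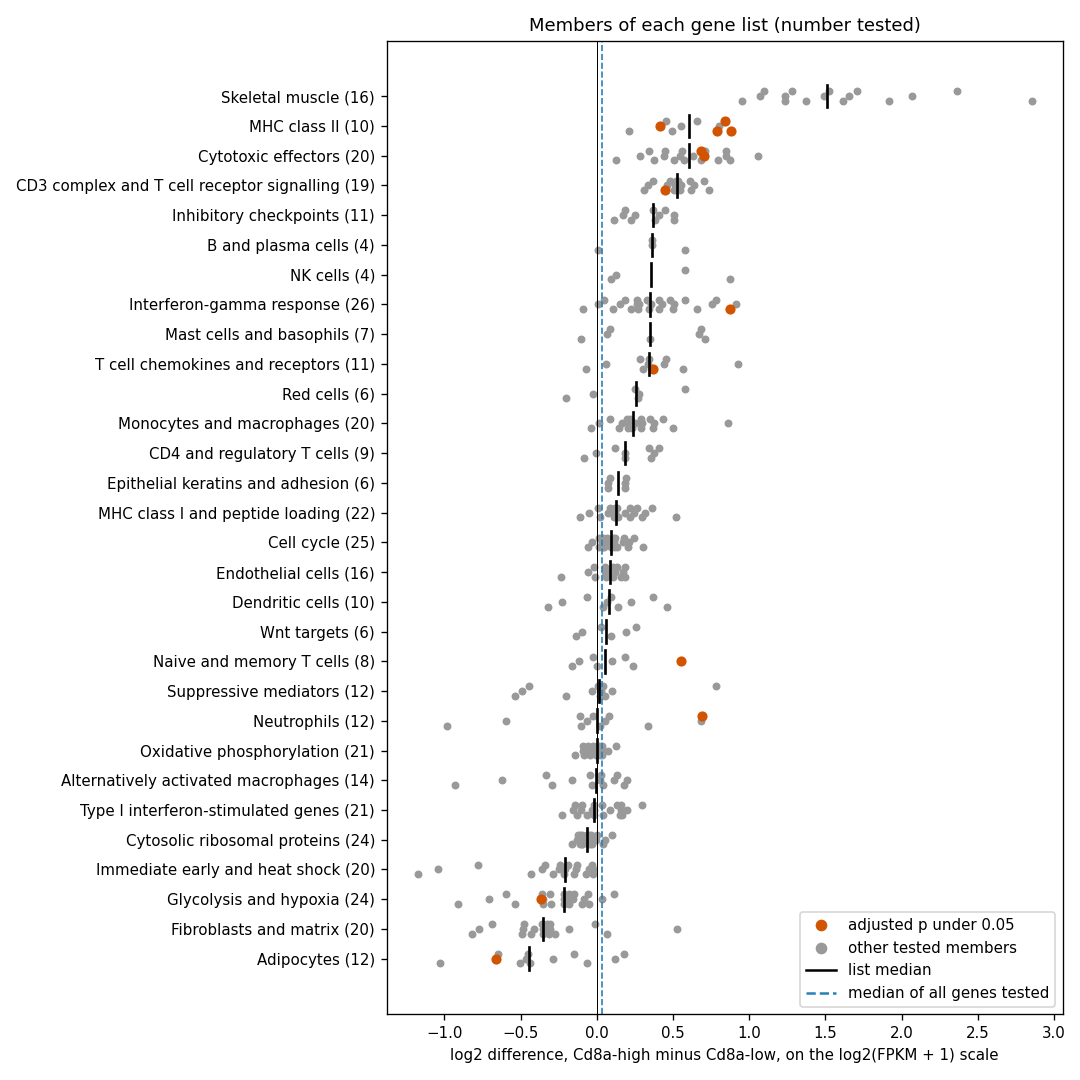
log2 difference, Cd8a-high minus Cd8a-low, on the log2(FPKM + 1) scale for each tested member of 30 gene lists, sorted by median; orange points passed an adjusted p of 0.05, black bars are list medians and the dashed line is the median of all genes. Medians run from 1.51 for skeletal muscle and 0.61 for MHC class II to -0.35 for fibroblasts and -0.44 for adipocytes.

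Skeletal muscle genes, which a tumor block can carry from the body wall, had the largest median of any list, 1.51, with all 16 tested members higher, 13 at an unadjusted p under 0.05 and none past the adjusted threshold. Acta1, the actin of skeletal muscle, stood at 21.6, 81.5 and 34.5 FPKM in BG136 2, 4 and 7-9 and 114 and 1.68 FPKM in vehicle 3 and 7, against 0.147 to 67.4 FPKM with a median of 0.447 in the Cd8a-low tumors. Acta1 was high in 4 of the 5 Cd8a-high tumors and in vehicle 11, at 9.899 FPKM in BG136 6, and at 1.68 FPKM or less in vehicle 7 and the other 4 Cd8a-low tumors. Over the 23 listed muscle genes the summed level was 13.9 to 387 FPKM in Cd8a-high and 7.18 to 213 FPKM in Cd8a-low tumors. Myh4, a myosin of fast muscle fibres, and Ckm, the creatine kinase of muscle, were at 0 in vehicle 12, and Myh4 also in BG136 1 and vehicle 1. Muscle RNA thus moved with the sets, and its part in the results was not tested beyond a covariate. The muscle median itself was 0.92 without vehicle 3. Every list was also fitted with the muscle level as a covariate. The median was then 0.67 for class II (0.61 without), 0.68 for cytotoxic effectors (0.60), 0.48 for the T cell receptor genes (0.53), 0.48 for the interferon-gamma response (0.35), 0.23 for monocytes and macrophages (0.24) and -0.43 for fibroblasts (-0.35). Other lists moved as well. The median with the covariate was 0.32 for neutrophils (0.00 without), with 9 of 12 higher, -0.15 for type I interferon-stimulated genes (-0.02) and -0.13 for red cell genes (0.26), with 2 of 6 higher. It was 0.17 for Wnt targets (0.06), 0.53 for epithelial genes (0.14) and -0.02 for endothelial genes (0.09), with 6 of 16 higher. For the T cell receptor genes it was 0.22 with the covariate and without BG136 6.

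In the remaining lists no member passed. Cell cycle genes were higher in 23 of 25 with a median of 0.09, and none passed. Their median was 0.15 within the BG136 tumors, with 22 of 25 higher, and 0.02 within the vehicle tumors, with 14 of 25 higher. Endothelial genes were higher in 12 of 16 with a median of 0.09, none at an unadjusted p under 0.05. Oxidative phosphorylation genes were higher in 10 of 21 with a median of 0.00, and ribosomal protein genes in 4 of 24 with a median of -0.06, none at an unadjusted p under 0.05. Wnt targets were higher in 4 of 6 (median 0.06). Red cell genes were also higher in 4 of 6 (median 0.26), but in 2 of 6 within the vehicle tumors (median -0.01) and in 2 of 6 with the muscle covariate, and the median was 0.11 without vehicle 3, 0.12 without BG136 1 and 0.17 without vehicle 2. Among mediators known to restrain T cells, 7 of 12 were higher with a median of 0.02, and none passed. Within that list Ido1, a tryptophan-degrading enzyme induced by interferon-gamma, had a log2 difference of 0.79 ± 0.27 (SE), adjusted p = 0.1701, while Tgfb2 and Tgfb3, transforming growth factors, had -0.44 and -0.49 (adjusted p = 0.05899 and 0.1596). Epithelial keratin and adhesion genes were low, 6 of 14 being tested, with a median of 0.14 that turned to -0.19 without BG136 2 and to -0.19 without BG136 6. Epcam, an adhesion protein that defines most epithelia, was at 0.173 to 1.83 FPKM in Cd8a-high and 0.0611 to 1.595 FPKM in Cd8a-low tumors. The skin keratinocyte genes Krt14 and Krt10 had log2 differences of 0.25 and 0.08 and did not pass.

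Treatment entered the comparison as a covariate, and the difference between the sets was also taken within each treatment. Within the BG136 tumors (3 Cd8a-high, 2 Cd8a-low) 78 genes passed, and within the vehicle tumors (2 Cd8a-high, 4 Cd8a-low) 0 passed and 603 had an unadjusted p under 0.05. The list medians had the same direction in both for class II (0.93 in BG136 and 0.30 in vehicle tumors), cytotoxic effectors (0.97 and 0.34), the interferon-gamma response (0.51 and 0.19) and fibroblasts (-0.51 and -0.21). The interaction of set and treatment passed for 0 of 11441 genes (0%; limma), and 657 (5.74%) had an unadjusted p under 0.05. Igfbp5, a binding protein of insulin-like growth factors, had the smallest p of the interaction. It averaged 6.43 FPKM in Cd8a-high and 27.3 FPKM in Cd8a-low BG136 tumors, and 11.04 FPKM in Cd8a-high and 9.95 FPKM in Cd8a-low vehicle tumors. The interaction was -2.11 ± 0.293 on the log2 scale (SE, adjusted p = 0.202); without vehicle 1 it passed, at an adjusted p of 0.004. For Cd3e the interaction was 1.16 ± 0.248 (SE, adjusted p = 0.722), with a difference of 1.16 within BG136 and -0.01 within vehicle tumors. BG136 6, the tumor of lowest Cd8a, is 1 of the 2 Cd8a-low tumors on the BG136 side; without it the median was 0.48 for class II (0.61 with it), 0.38 for cytotoxic effectors (0.60), 0.23 for the interferon-gamma response (0.35) and 0.22 for checkpoints (0.37). It was 0.19 for mast cells (0.35), 0.07 for class I (0.13), 0.02 for helper and regulatory T cells (0.18), -0.14 for glycolysis and hypoxia (-0.21) and -0.29 for adipocytes (-0.44).

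With the set held fixed, 0 of 11441 genes (0%) passed between BG136 and vehicle tumors by limma, and 224 (1.96%) had an unadjusted p under 0.05. Cd8a was measured in tumors already treated, so a difference between treatments that goes along with Cd8a is not counted in this term. The 6 genes of smallest p were Plin1, Cidec, Stra6, Cfd, Adipoq and Lrg1. Plin1 had a log2 difference, BG136 minus vehicle, of -0.70 ± 0.109 and Cidec, another lipid droplet protein, one of -0.80 ± 0.134 (SE, adjusted p = 0.356 for each). Stra6, the membrane receptor for retinol-binding protein, was higher by 0.45 ± 0.0801 (SE, adjusted p = 0.406). Plin1 thus passed between the sets and not between the treatments, although its difference and SE were of similar size in both. The p-values of each term were adjusted separately, so passing in only 1 of them does not set Plin1 apart from treatment. Cfd, also described between the sets above, passed in neither.

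**Figure D4:**
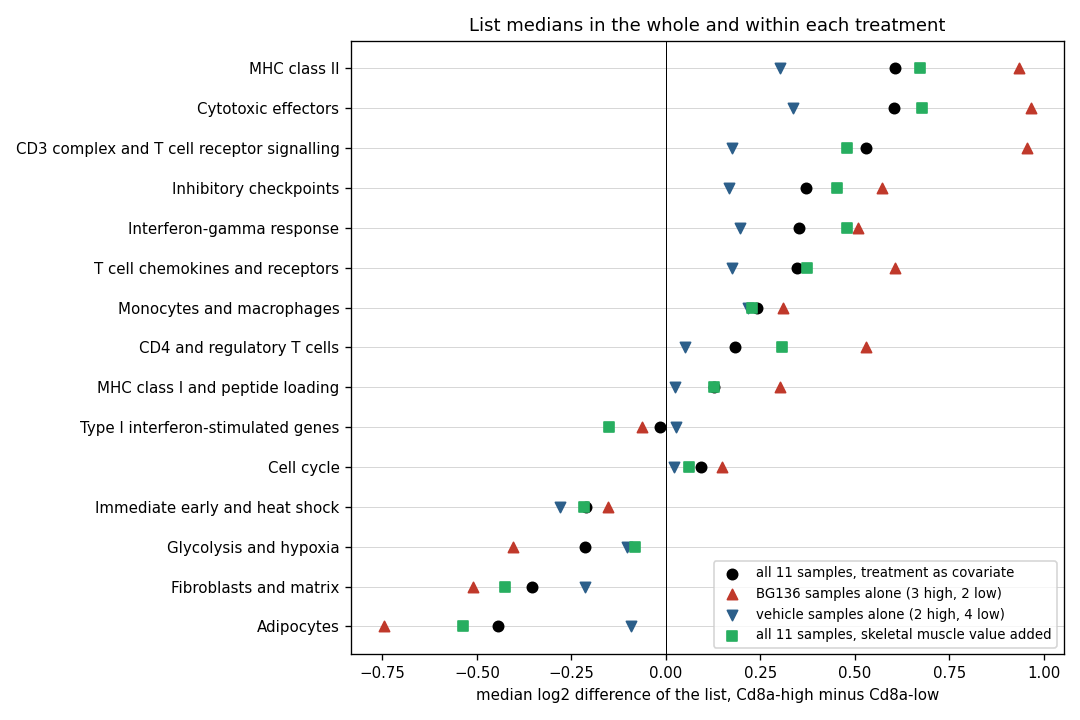
Median log2 difference, Cd8a-high minus Cd8a-low, of 15 gene lists, in all 11 samples with treatment as a covariate (black), within the 5 BG136 samples (red), within the 6 vehicle samples (blue) and with the skeletal muscle level added (green). Class II, cytotoxic and interferon-gamma lists lie to the right of 0 in every fit and fibroblasts to the left, and the BG136 points lie farther from 0 than the vehicle points in these lists.

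Replacing the sets by the level of Cd8a itself, as log2 FPKM, gave 399 genes that increased (3.49%) and 110 that decreased (0.961%) with Cd8a, and 109 of the 155 genes were among them. Cd8b1, which did not pass between the sets, passed here (adjusted p = 0.00247), as did Cd3e (0.006699), Gzmb (0.00652), Prf1 (0.00737), Cxcl9 (0.00384) and Havcr2 (0.0335), each increasing with Cd8a. So did 17 of 19 T cell receptor genes, 14 of 20 cytotoxic genes, 9 of 10 class II genes and 15 of 26 interferon-gamma response genes. Among decreasing genes were 6 of 24 glycolysis and hypoxia genes and 5 of 20 fibroblast genes. Cd4 did not pass (adjusted p = 0.288), and neither did Csf3r (0.142), Rassf4 (0.1003) or Nfil3 (0.315), which separated the sets. The continuous level and the sets share the same samples and the same Cd8a values, so that neither is independent of the other. T cells that carry Cd8a also express Cd8b1 and Cd3e and can express Gzmb and Prf1. An increase of these genes with Cd8a is thus a description and no separate support for the sets. BG136 6 had the lowest Cd8a, 5.41 FPKM against 9.69 FPKM or more in the other tumors. The fit on the continuous level was not repeated without it, so how far these genes rest on that tumor was not tested.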

How the data were processed

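Whole-tumor RNA was sequenced in 6 BG136 and 6 vehicle libraries, made per the labels' protocols with a stranded mRNA kit from total RNA. The deposited table held 15170 genes. The authors computed FPKM per library before they deposited it; the header does not name the unit, which was taken from the values. The submitters' processing notes name Trimmomatic, HISAT2, Cufflinks, HTSeq and DESeq with build GRCm39, without versions or order. The authors' deposited base means (a signal per gene), fold change, log2 fold change, p-value and q-value for BG136 over vehicle were not used as results. Base means served only to turn FPKM into reads; 100% of values came out whole to within 0.1, and their sums are the depths stated above.

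BG136 replicates 7 and 9 were averaged in FPKM, and the sets were assigned by Cd8a at 14 FPKM. limma 3.58.1 (R 4.3.3; trend option, moderated variance) was fitted to log2(FPKM + 1), a scale that understates the change of low genes. Set and treatment were the terms, two-sided, with Benjamini-Hochberg adjustment over all genes tested. Every adjusted p comes from it. The fit was tested on simulated data. With no counts deposited as such, limma-voom on the recovered reads was an alternative. Membership of the sets, the gene lists and the genes named whatever their values were chosen with earlier results of these data known. Named were also the 12 genes of smallest p in each direction, up to 4 members of smallest p per list, 8 of the interaction and 6 of the treatment term; Ptprc, Cd74, Irf1, Ncr1, Arg1, Mrc1, Thy1, Acta1, Myh4 and Ckm were named after their values were seen. Some genes that this rule names are not reported here. No mitochondrially encoded gene is in the table.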

Additional observations from a re-analysis of the deposited data

Results flagged for a closer look

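In 11 of 152 sets of values examined, the highest or lowest sample stood apart from the rest of its set by Dixon's 95% criterion, which chance alone meets in about 1 of 20. In the Cd8a-high set, Cd4 was at 3.87 FPKM in vehicle 7, against 6.33 to 6.99 FPKM in the other 4 tumors. Cxcl10 was at 774 FPKM in BG136 2, against 499 to 578 FPKM in the others. Klra2 was at 14.9 FPKM in BG136 4, against 15.7 to 16.02 FPKM, a small gap within a tight set. Dennd1c was at 15.3 FPKM in BG136 2, against 10.98 to 11.6 FPKM, and Fgl2 at 48.7 FPKM in BG136 7-9, against 35.6 to 37.7 FPKM. The mean centred level of glycolysis and hypoxia genes was 0.0997 in vehicle 7, against -0.214 to -0.195 in the other Cd8a-high tumors.

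In the Cd8a-low set, Ifng was at 1.04 FPKM in BG136 6, against 2.25 to 2.91 FPKM in the other 5 tumors, and Adgrg5 at 2.58 FPKM in BG136 6, against 3.47 to 3.89 FPKM. Xcl1 was at 1.25 FPKM in vehicle 1, against 3.65 to 4.89 FPKM. Vehicle 11 stood apart with a mean centred level of 0.0323 for monocyte and macrophage genes, against -0.192 to -0.121, and of 1.46 for skeletal muscle genes, against -1.43 to -0.383.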

How the results depend on the processing

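Of genes past the threshold between the sets (155), the count was 30 with no filter on low values, 62 after median of ratios rescaling, 509 with log2 Cd8a as a continuous term, 282 without the 2 samples nearest the threshold, 353 with no treatment term, 1 with skeletal muscle as a covariate, 406 with 12 libraries counted separately, 1618 with sample weights, 78 in BG136 alone, 0 in vehicle alone and 560 without vehicle 11 and 12. Leaving out 1 sample gave 1 to 426, and 0 to 1 for the interaction. Alternatives chosen after seeing the data gave 0 with the muscle covariate and without BG136 6, and 59 without BG136 6 and vehicle 11 and 12. The replicate block over samples numbered 1, 2 and 7 gave 3. Deviations of same-numbered samples correlated at 0.494, -0.419 and 0.25; numbers 1 and 7 were closest to their own number and BG136 2 to vehicle 11, so that the numbers were not taken as a pairing.

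Directions reversed in vehicle samples alone for Cd3e (log2 -0.00736), Cd4 (-0.168), Ifng (-0.0409), Tigit (-0.127), Cxcl10 (-0.0301), B2m (-0.0332) and H2-K1 (-0.0579). Cd4 reversed with the muscle covariate (-0.0403) and with it without BG136 6 (-0.246), and Cd274 without BG136 6 and vehicle 11 and 12 (-0.0141). None of these genes had passed, and the causes were not tested. Of the other recomputed gene values and list medians, 1312 kept their direction and their side of the threshold or moved by less than the spread between samples, 62 list medians moved by more, 30 gene values moved past the threshold and 14, all of H2-Aa, fell short of it. The set sizes of 5 and 6 limit what can be called; genes below the filter were not tested.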
